A study of Oryza sativa Indica Group with 64 samples.

Results

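The late-night response to warm nights was measured in leaves of IR64, an indica rice variety raised on a field plot during a dry season, at 23 h after dawn. The warmed plants were heated by infrared heaters at night and are called WNT here, after their labels, in which the letters stand for warm night temperature. The Control plants stood in the same field season without heaters. All libraries whose labels place them at 23 h after dawn were used, 4 of WNT and 4 of Control, which is 8 of the 64 libraries of a time course that covers 8 time points in both treatments. The WNT and Control leaves of dawn, 4 libraries each, were set beside them to see how far the late-night response resembles that at dawn.

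Every group carried the same genotype, and its libraries were made from poly(A) RNA of leaf tissue with a directional kit. The night temperature that the heaters reached, the age of the plants and the arrangement of heated and unheated plots are not given in the labels, so the warm nights and a difference between plots cannot be told apart. Whether the 4 replicates of a group came from separate plots is not stated either, and the p-values below measure the spread between these libraries only. The labels also do not say on which morning the dawn leaves were taken.

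By the end of the night a rice leaf has lived for hours on starch and sucrose stored during the day, and warmer nights are known to raise the rate at which this carbon is respired. Many transcripts of plant leaves follow the circadian clock, which is reset by light at dawn and is also responsive to temperature, so that the last hour of the night holds transcripts that prepare the leaf for the morning. Samples at 23 h after dawn and at dawn are neighbours in the daily cycle.

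Each library came as read counts for 57174 genes. At 23 h the counts on genes ranged from 5175190 to 9816316 in the WNT libraries and from 7665127 to 15314615 in the Control libraries, and over all 64 libraries from 1714647 to 37248564. Of the genes, 20525 passed the filter on low counts and were tested. A level of 3 counts, taken as the lowest that a library can show, was worth 0.26 to 0.755 CPM at 23 h, a level relative to all counts of the library after TMM scaling, which covers counting error only. The identifiers begin with MH, and 0 of them matched a name in the gene table used. For this reason genes are given by identifier with no statement on what they do, and the leaf label was not checked against marker genes.

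The 8 libraries of 23 h did not separate into WNT and Control. In a principal component analysis of log2 CPM in the 16 libraries of 23 h and dawn, the first component held 37.5% of the variance. It placed WNT replicates 1 and 4 and Control replicate 2 of 23 h, together with Control replicates 1 and 3 of dawn, at 51.8 to 109 and the other 11 libraries at -50.5 to -15.4. The second component, with 13.4% of the variance, had its highest values in WNT replicate 3 of 23 h (89.2), WNT replicate 1 of dawn (60.5) and WNT replicate 1 of 23 h (41.5). By correlation with the mean of each of the 16 groups, itself left out, WNT replicate 1 and Control replicates 1, 3 and 4 lay nearest to their own group. WNT replicates 2 and 3 lay nearest to WNT at dawn (r = 0.979 and 0.959, against 0.957 and 0.924 with their own group). WNT replicate 4 lay as near to Control at dawn as to its own group (0.949 against 0.948), and Control replicate 2 lay nearer to Control at dawn (0.977 against 0.959). In WNT replicate 3, 59.85% of all reads were counted on genes and 9.97% aligned to several places, against 66.1% to 74.4% and 3.28% to 4.88% in the other 7. WNT replicate 1 had 21.7% of reads not aligned, against 10.85% to 17.1% in the others. The part of these differences in the results was not tested beyond leaving the libraries out, and values without them are given below.

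At 23 h only 2 genes differed between WNT and Control at an adjusted p-value under 0.05, and both were higher in WNT (quasi-likelihood test of edgeR, with p-values adjusted by Benjamini-Hochberg). They were MH05t0425000 and MH07t0013700, or 0.00974% of the genes tested. At an unadjusted p under 0.05 there were 3032 genes, of which 2163 (10.5% of those tested) were higher and 869 (4.23%) were lower in WNT. All 4 WNT libraries lay above all 4 Control libraries for 760 genes (3.7%) and below them for 823 (4.01%). The directions of these measures differed, since the unadjusted test gave more higher genes and the count of groups that do not overlap gave slightly more lower ones. DESeq2 called 176 genes, 127 higher and 49 lower, and limma-voom with sample quality weights called 207, 136 higher and 71 lower, and each of these sets held the same 2 genes. With the 8 libraries of 23 h fitted alone 0 genes were called by edgeR, with 2462 at an unadjusted p under 0.05.

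MH05t0425000 had 6.84, 4.54, 7.06 and 6.55 CPM in the WNT libraries (replicates 1 to 4), against 2.49, 2.61, 2.22 and 2.52 CPM in the Control libraries. These levels came from 26 to 58 counts in WNT and 15 to 30 counts in Control. The groups did not overlap, and the Control values lay within a narrow range. The log2 fold change of WNT over Control was 1.34, with a standard error (SE) of 0.25 (adjusted p = 0.0324 from edgeR). At dawn the same gene had 6.54, 4.23, 3.99 and 2.72 CPM in WNT, against 3.33, 5.06, 2.95 and 3.54 CPM in Control. There the groups overlapped, and the log2 fold change was 0.24 (SE 0.25, adjusted p = 0.705). Among the Control leaves of the 6 time points between dawn and 23 h its level was highest at 14 h.

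MH07t0013700 was a gene of low level, at 3.35, 1.13, 1.7 and 1.01 CPM in WNT, against 0.374, 0.608, 0.295 and 0.53 CPM in Control. The WNT values rested on 23, 10, 14 and 4 counts and the Control values on 3, 7, 2 and 4 counts. No library overlapped with the other group in CPM, and replicate 1 was the highest in WNT. The counts themselves did overlap. Control replicates 1 and 3, with 3 and 2 counts, lay at or under the 3 counts taken as the lowest level. The log2 fold change was 1.95 (SE 0.37, adjusted p = 0.0324 from edgeR). At dawn the levels were 1.11, 1.06, 0.644 and 0.779 CPM in WNT and 1.3, 0.873, 0.348 and 0.8 CPM in Control, which overlapped, with a log2 fold change of 0.13 (SE 0.37, adjusted p = 0.92). Whether the effect at 23 h differs from that at dawn was tested in the same model, and neither gene passed (adjusted p = 0.232 for each), so a response confined to 23 h is not shown.

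**Figure D1:**
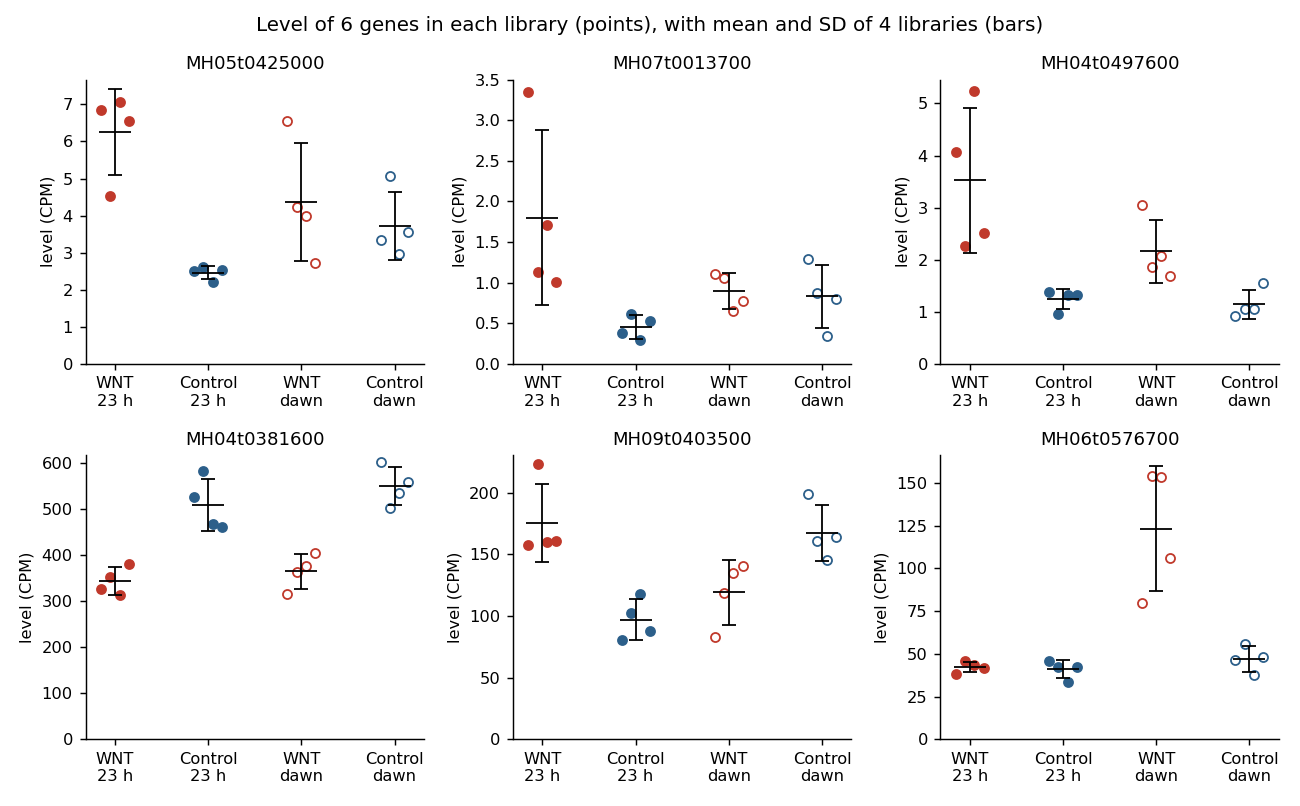
Level in CPM (y axis, from 0) of 6 genes in the WNT and Control libraries of 23 h (filled points) and of dawn (open points), 4 libraries each, with the mean and SD as bars. The top row begins with the 2 genes called at 23 h, MH05t0425000 and MH07t0013700, whose WNT libraries lay above all Control libraries at 23 h but not at dawn. MH04t0497600 lay higher and MH04t0381600 lower in WNT at both times, MH09t0403500 lay in opposite directions, and MH06t0576700 lay higher without overlap at dawn but not at 23 h.

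The call of these 2 genes depended on single libraries, while their direction did not. Under all alternatives in which they were tested, 34 for MH05t0425000 and 30 for MH07t0013700, both remained higher in WNT, with log2 fold changes of 1.08 to 1.49 and of 1.44 to 2.12. Without WNT replicate 3, or without Control replicate 1, 2 or 3, 0 genes were called at 23 h, with 2235, 2253, 3137 and 2585 genes at an unadjusted p under 0.05. Without Control replicate 4 only MH02t0661100 was called, which was lower in WNT (log2 fold change -0.861, adjusted p = 0.0475 from edgeR). Without WNT replicate 1 that gene (-0.871) and MH04t0449100 (1.17) were called, with an adjusted p of 0.0468 each, and the 2 genes above were not. Without WNT replicate 2 the number was 40 and without WNT replicate 4 it was 63, and both of these sets held the 2 genes. With WNT replicates 1 and 4 and Control replicate 2 left out together, a choice made after seeing the data, MH04t0449100 alone was called (1.45, adjusted p = 0.0192). These 2 further genes are named because of their values here. Leaving out libraries of dawn, which enter through the shared filter, scaling and estimate of the spread, gave 0 to 29 genes.

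The direction of the unadjusted differences followed the level of the genes. Among the 2512 genes with a mean under 1 CPM over the 16 libraries of 23 h and dawn, the median log2 fold change at 23 h was 0.55, and among the 6772 genes at 1 to under 10 CPM it was 0.23. The 8875 genes at 10 to under 100 CPM had a median of -0.00227, and the 2366 genes at 100 CPM and over had a median of -0.17. The median of all genes tested was 0.0522. Without the 3 libraries WNT replicates 1 and 4 and Control replicate 2, the median of the genes under 1 CPM was 0.115 and that of the genes at 100 CPM and over was -0.236. With library size only in place of TMM the median of all genes was 0.194, and the share of the unadjusted differences that were higher in WNT was 90.2% in place of 71.3%. It was 61.7% with limma-voom, 55.1% with a filter of 1 CPM in at least 4 libraries and 63.8% among genes with at least 10 counts in every library, so the balance of directions depends on the processing.

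A set of low genes was present in some libraries of 23 h and near 0 in others of the same treatment. This set was chosen after the values were seen, as genes with at least 10 CPM in 1 or more of the 8 libraries and at most 0.5 CPM in 4 or more, and it is described without a test. It held 139 genes, and all but 26 of them were above 2 CPM in exactly the same 3 libraries, WNT replicates 1 and 4 and Control replicate 2. These are called the on-off genes. Summed over them the level was 2952, 52.3, 8.28 and 2334 CPM in the WNT libraries, against 11.7, 811.2, 16.4 and 6.23 CPM in the Control libraries. WNT replicates 1 and 4 thus held the highest sums and WNT replicate 3 stood among the low Control libraries. At dawn the sums were 21.1, 49.7, 23.7 and 60.5 CPM in WNT, against 1480, 11.35, 1027 and 11.55 CPM in Control, so that the set was present in Control replicates 1 and 3 and low in all WNT libraries.

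MH05t0369800 had the highest mean of the set at 23 h. In WNT it had 328, 0, 0.122 and 216 CPM, against 0, 112.6, 0.148 and 0 CPM in Control. At dawn it had 0, 0.132, 0.257 and 0 CPM in WNT, against 244, 0.175, 159 and 0.171 CPM in Control. Its level at 23 h thus differed widely between libraries of the same treatment. MH02t0476600, the second by mean, had 102, 1.59, 0 and 84.9 CPM in WNT and 0.374, 21.6, 0.443 and 0.133 CPM in Control at 23 h, and was high in the same 3 libraries.

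Presence in WNT replicates 1 and 4 and Control replicate 2 defined the on-off genes, so their positive log2 fold changes at 23 h, from 1.21 to 3.44 with a median of 2.5, follow from the choice and are no result. At dawn, whose values were not used to choose them, the log2 fold changes were negative in all of them, from -10.12 to -0.92 with a median of -3.65. These genes rose and fell together, and the sign at dawn rests on Control replicates 1 and 3. The genes are thus not separate results, and 0 of them were called at dawn. The set was not limited to late night. Its summed level ranged from 13.7 to 2027 CPM in the WNT libraries and from 9.05 to 4880 CPM in the Control libraries of the 6 time points between dawn and 23 h, and both treatments had high and low libraries at most of them. At dusk the 4 WNT libraries had sums of 762.2 to 2027 CPM and the 4 Control libraries 43.3 to 2527 CPM, and at 10 h no library exceeded 431.2 CPM.

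**Figure D2:**
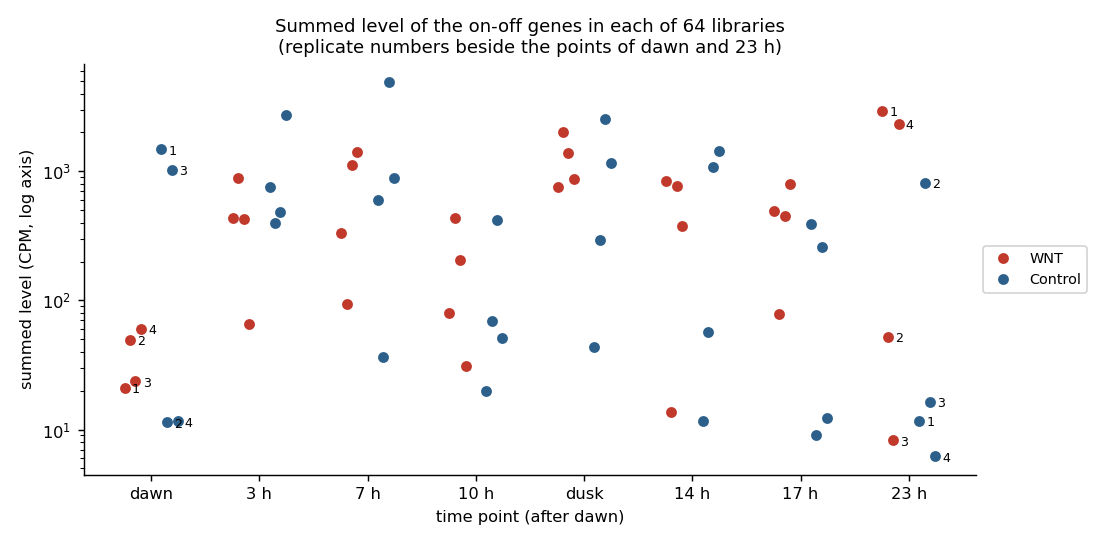
Summed level in CPM (log axis) of the on-off genes in each of the 64 libraries, by time after dawn (x axis), WNT left of Control, with replicate numbers beside the points of dawn and 23 h. At 23 h WNT replicates 1 and 4 (2952 and 2334 CPM) and Control replicate 2 (811.2 CPM) lay far above the other 5 libraries (6.23 to 52.3 CPM), and at dawn Control replicates 1 and 3 did.

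Across all genes tested, the WNT effect at 23 h did not follow the WNT effect at dawn. The log2 fold changes of the 2 times, which rest on different libraries, had a Pearson correlation of -0.285 and a Spearman correlation of 0.0657 over 20525 genes. These values are across genes, which are not independent replicates, and they are given as a description. The sign was the same for 11572 genes (56.4%). The correlation differed with the level of the genes, at -0.261 under 1 CPM, -0.357 at 1 to under 10 CPM, -0.146 at 10 to under 100 CPM and 0.181 at 100 CPM and over (Spearman -0.23, -0.00402, 0.219 and 0.209). Without the on-off genes the Pearson correlation was -0.231.

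The sign of this correlation changed with the libraries and genes used. Without WNT replicates 1 and 4 and Control replicate 2 of 23 h it was 0.00607, and with Control replicates 1 and 3 of dawn also left out it was 0.22. Among the 11938 genes with at least 10 counts in every library it was 0.277, and with 1 surrogate variable in the model it was 0.257. These alternatives, other than the filter, were chosen after seeing the data. Leaving out a single library of 23 h or dawn gave -0.527 (without Control replicate 2 of 23 h) to -0.136 (without WNT replicate 1 of 23 h).

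**Figure D3:**
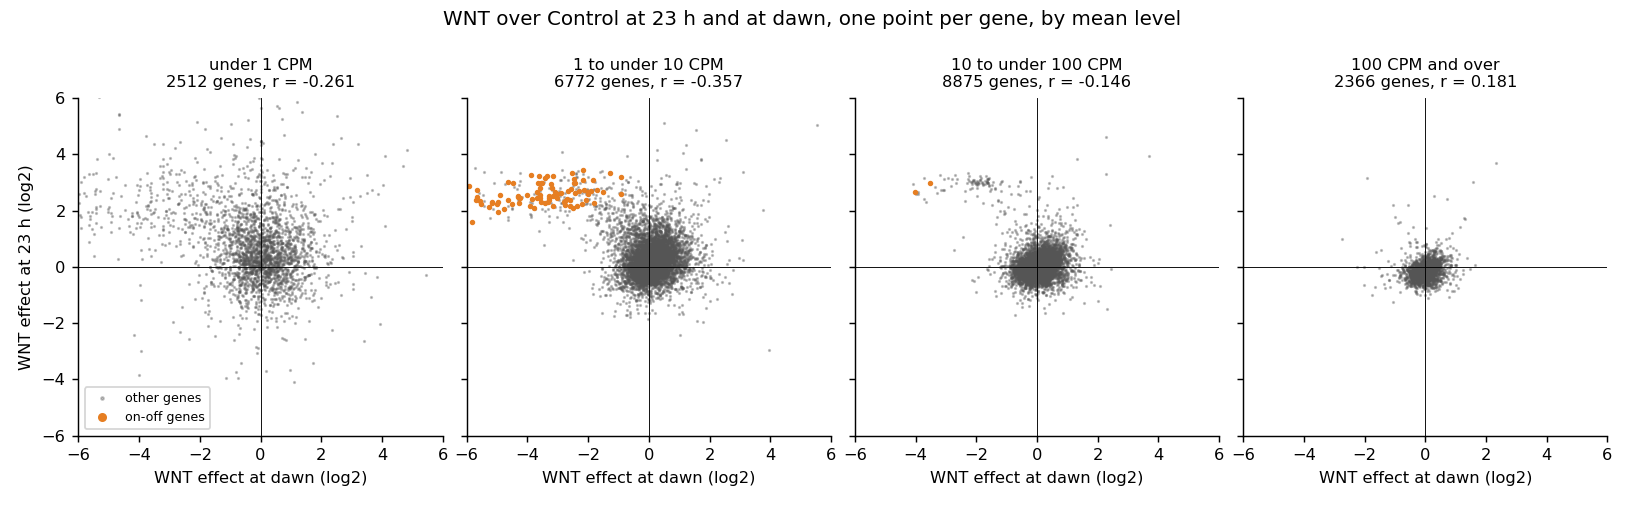
WNT effect at 23 h (y axis) against the WNT effect at dawn (x axis), both as log2 fold change of WNT over Control, 1 point per gene, in 4 panels by the mean level of the gene. The on-off genes (orange) lie at upper left, and the Pearson correlation is negative in the 3 lower classes (-0.261, -0.357 and -0.146) and 0.181 at 100 CPM and over. The axes end at 6 in each direction, beyond which 64 genes lie.

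Genes called as lower at dawn tended to lie on the same side at 23 h, with much smaller differences. For those called as higher at dawn this was not clear. At dawn 83 genes were called (0.404% of those tested), 25 higher and 58 lower in WNT. This number was 3 without WNT replicate 4 or Control replicate 1 of dawn, 7 without Control replicate 4, 15 to 39 with WNT replicate 1, 2 or 3 or Control replicate 3 left out in turn, and 316 without Control replicate 2 of dawn. It was 0 without the 5 libraries that carried the on-off genes, with 1458 genes at an unadjusted p under 0.05 in place of 2952. That fit lacks Control replicates 1 and 3 of dawn, so the smaller group and the on-off pattern cannot be told apart. Of the 25, 17 (68%) had a higher fitted level in WNT at 23 h, against 55.1% of all genes, and their median log2 fold change was 0.148 at 23 h, against 1.22 at dawn. Of the 58, 48 (82.8%) had a lower fitted level in WNT at 23 h, against 44.8% of all genes, and their median was -0.133, against -0.734 at dawn. At an unadjusted p under 0.05 at 23 h there was 1 of the 25 (4%), which is below the 10.5% of all genes that were higher. There were 9 of the 58 (15.5%), against 4.23% of all genes that were lower. All lay in the direction of dawn, and 0 were called at 23 h. With library size only, 28 of the 58 were lower and their median was 0.0228, which lay below the median of 0.194 of all genes under that scaling. Without WNT replicate 3 of 23 h and WNT replicate 1 of dawn together the median of the 25 was -0.0293.

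MH06t0576700 and MH06t0576800, with consecutive identifiers, were the 2 genes with the smallest p among those higher at dawn. At dawn MH06t0576700 had 80, 154, 153 and 105.9 CPM in WNT, against 46.3, 56.1, 37.4 and 48.1 CPM in Control, with a log2 fold change of 1.39 (SE 0.19, adjusted p = 2.27e-05 from edgeR). At 23 h it had 38.1, 45.6, 43.6 and 41.8 CPM in WNT, against 46.1, 42.1, 33.8 and 42.3 CPM in Control. The groups overlapped at 23 h, and the log2 fold change was 0.0418 (SE 0.19, adjusted p = 0.941). The difference of the effects, 23 h minus dawn, was -1.35 (SE 0.26, adjusted p = 0.0455). MH06t0576800 had 22.4, 21.9, 20 and 24.4 CPM in WNT at 23 h, against 19.1, 18.2, 15.4 and 17.9 CPM in Control. All its WNT libraries lay above all Control libraries, by a log2 fold change of 0.33 (SE 0.22, adjusted p = 0.488), against 1.46 at dawn (SE 0.22, adjusted p = 0.000239). Whether the 2 genes share reads as near-identical copies is not known from the files.

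Another 4 genes were named for the smallest p at dawn. MH01t0785700 averaged 41.6 ± 11.5 CPM in WNT and 34.3 ± 9.13 CPM in Control at 23 h (SD, n = 4 each), with a log2 fold change of 0.28, against 2.04 at dawn. MH10t0431400 averaged 31.9 ± 5.33 CPM in WNT and 33.1 ± 0.8 CPM in Control at 23 h, with -0.0493, against -0.887 at dawn. MH04t0434100 averaged 12.3 ± 1.47 CPM in WNT and 13.8 ± 2.55 CPM in Control, with -0.168, against -1.41 at dawn. In these 3 genes the libraries of the treatments overlapped at 23 h, and none was called there (adjusted p of 0.77 to 0.912 from edgeR). MH02t0508300, in contrast, kept its direction, and its values are given below.

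Only 2 genes (0.00974%) passed the test of a difference between the effects at 23 h and at dawn, with 2300 at an unadjusted p under 0.05 and 35 called by DESeq2. MH06t0576700 was described above. MH09t0403500 had 157, 223, 160 and 161 CPM in WNT at 23 h, against 80.3, 103, 117 and 87.8 CPM in Control. At dawn it had 82.6, 119, 135 and 140 CPM in WNT, against 199, 161, 145 and 164 CPM in Control. Its WNT libraries lay above all Control libraries at 23 h and below all of them at dawn. The log2 fold change was 0.85 at 23 h (SE 0.18, adjusted p = 0.0516 from edgeR) and -0.49 at dawn (SE 0.18, adjusted p = 0.194), and the difference was 1.34 (SE 0.25, adjusted p = 0.0455). In Control leaves of the 6 time points between dawn and 23 h this gene was highest at 3 h. The number of genes that passed was 0 to 6 when 1 library of 23 h or dawn was left out, and 0 without WNT replicate 1 or 4 or Control replicate 1, 2 or 4 of 23 h, and without WNT replicate 2 or Control replicate 1 or 4 of dawn.

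The next genes by this test did not pass. MH01t0728500 had 32.8, 11.9, 33.7 and 28.7 CPM in WNT at 23 h, against 12.7, 12.3, 9.16 and 12.6 CPM in Control. WNT replicate 2 lay within the range of Control and the other 3 above it, with a log2 fold change of 1.19 (SE 0.25, adjusted p = 0.0516 from edgeR), against -0.375 at dawn. MH08t0547700 had a log2 fold change of -0.391 at 23 h and 1.22 at dawn (adjusted p = 0.486 and 0.03). MH12t0053400 had 5.53, 0.34, 0.365 and 3.02 CPM in WNT at 23 h, against 0.249, 1.04, 0.443 and 0.265 CPM in Control, and was high in the same libraries as the on-off genes.

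The mean of the effects at 23 h and dawn passed for 388 genes (1.89%), of which 139 were lower and the others higher in WNT. Since 23 h enters this mean, these genes are a description of what the 2 times share and not a test of their agreement. The number fell to 52, with 26 in each direction, without WNT replicate 3 of 23 h, and to 44 without that library and WNT replicate 1 of dawn together. It was 2 without the 5 libraries that carried the on-off genes, a fit that also has smaller groups. The 2 times had no overlap between WNT and Control in the same direction for 0.648% of the genes, 45 higher and 88 lower, and in opposite directions for 8. At an unadjusted p under 0.05 at both times there were 513 genes, of which 271 were higher at both (1.32% of the genes tested), 0.594% of the genes tested were lower at both, 99 were higher at 23 h and lower at dawn, and 21 were lower at 23 h and higher at dawn.

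Among the genes higher in WNT at both times, MH04t0497600 had the largest mean effect of the 5 that the rule names. It had 4.08, 2.27, 5.24 and 2.52 CPM in WNT at 23 h, against 1.37, 0.956, 1.33 and 1.33 CPM in Control. At dawn it had 3.04, 1.85, 2.06 and 1.69 CPM in WNT, against 0.925, 1.05, 1.04 and 1.54 CPM in Control. The lack of overlap at both times is part of how these genes were chosen. Its log2 fold change was 1.52 at 23 h (adjusted p = 0.0543) and 0.87 at dawn (adjusted p = 0.217), and the mean of both was 1.2 (SE 0.24, adjusted p = 0.00744 from edgeR). MH09t0429100 averaged 11 ± 3.96 CPM in WNT and 5.27 ± 0.695 CPM in Control at 23 h (SD, n = 4 each), and 9.45 ± 2.93 CPM in WNT and 5.59 ± 1.49 CPM in Control at dawn. MH08t0509100 averaged 7.86 ± 2.88 CPM in WNT and 3.75 ± 1.07 CPM in Control at 23 h, and 6.61 ± 1.7 CPM in WNT and 3.98 ± 0.681 CPM in Control at dawn. Its Control level was highest at 10 h among the 6 time points between dawn and 23 h.

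MH02t0515000 had a similar fitted difference at both times. It had 18.9, 14.3, 18.8 and 15.1 CPM in WNT at 23 h, against 11.8, 9.64, 12.1 and 13 CPM in Control. Its log2 fold change was 0.53 at 23 h and 0.489 at dawn, and the mean was 0.509 (SE 0.1, adjusted p = 0.0104 from edgeR). Over the other 7 time points the mean effect was 0.344 (adjusted p = 3.77e-05 from edgeR). These include dawn, whose libraries were used to choose the gene, so this value is not separate support.

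Of the 5 genes that the rule names as lower in WNT at both times, MH04t0381600 had the highest level. At 23 h it had 327, 353, 313 and 382 CPM in WNT, against 526, 583, 468 and 461 CPM in Control. At dawn it had 315, 365, 378 and 405 CPM in WNT, against 603, 504, 536 and 560 CPM in Control. The values of the 2 times were close to each other in each treatment. The log2 fold change was -0.568 at 23 h (SE 0.16, adjusted p = 0.121) and -0.591 at dawn (SE 0.16, adjusted p = 0.0732). The mean of both was -0.579 (SE 0.11, adjusted p = 0.00666 from edgeR). Over the other 7 time points it was -0.402 (adjusted p = 1.78e-05 from edgeR), which again includes the dawn libraries used to choose the gene.

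MH02t0508300 had 36, 50.4, 44.1 and 33.5 CPM in WNT at 23 h, against 58.2, 63.6, 65.1 and 51.8 CPM in Control. The highest WNT library thus lay just below the lowest Control library. Its log2 fold change was -0.539 at 23 h and -0.854 at dawn, where it was called (adjusted p = 0.008 from edgeR). MH05t0478100 was highest at 3 h in Control leaves of the 6 time points between dawn and 23 h. It averaged 60.9 ± 5.91 CPM in WNT and 90.5 ± 9.55 CPM in Control at 23 h (SD, n = 4 each), with -0.57 at 23 h and -0.751 at dawn. MH03t0586700 averaged 9.91 ± 3.2 CPM in WNT and 20.5 ± 5.41 CPM in Control, with -1.04 and -0.801. MH03t0137300 averaged 57.7 ± 5.68 CPM in WNT and 74.5 ± 8.84 CPM in Control, with -0.367 and -0.521. Each of these 4 genes passed for the mean of both times (adjusted p of 0.00119 to 0.0104) and none at 23 h alone (adjusted p of 0.0679 to 0.202).

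Genes with a WNT effect over the other time points, dawn included, lay mostly on the same side at 23 h. The mean effect of the other 7 time points passed for 3151 genes (15.4%), 1567 higher and 1584 lower in WNT, in libraries that do not include those of 23 h. Of the 1567, 1304 (83.2%) had a higher fitted level in WNT at 23 h, against 55.1% of all genes, and of the 1584, 1215 (76.7%) had a lower one, against 44.8%. Their medians at 23 h were 0.31 and -0.168, against 0.0522 over all genes. At an unadjusted p under 0.05 at 23 h, 384 of the 1567 (24.5%, against 10.5% of all genes) were higher and 8 were lower, and 232 of the 1584 (14.6%, against 4.23%) were lower and 24 were higher. None of them (0) was called at 23 h. Without WNT replicate 3 of 23 h the same genes gave medians of 0.182 and -0.147. There 163 of the 1567 were higher at an unadjusted p under 0.05. This share was much nearer to that of all genes (1684 of 20826) than in the main fit. With library size only the same genes gave 590 and 82, with medians of 0.467 and -0.0314. Of all 20525 genes 3464 had an unadjusted p under 0.05 under that scaling, of which 3124 were higher. Without WNT replicate 3 of 23 h and WNT replicate 1 of dawn together, the median of the 1567 was 0.103. Among genes called anew in that fit, 64.9% of the higher ones were higher at 23 h, against 43.9% of all genes. Of the lower ones, 82% were lower, in a fit in which most of all genes were lower at 23 h. These 2 libraries had a correlation of 0.973 in log2 CPM.

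MH03t0651400 had the smallest p of the genes higher over the other time points. At 23 h it had 207.6, 609.4 and 260.6 CPM in WNT replicates 2 to 4, against 136.5, 105.7, 85.5 and 117.6 CPM in Control. WNT replicate 3 was far above the others, and WNT replicate 1 lay within the range of Control. The log2 fold change was 1.42 (SE 0.41, adjusted p = 0.123 from edgeR), against 1.31 over the other 7 time points. MH09t0315400 had 38.3, 30, 39.5 and 39.3 CPM in WNT, against 15.3, 16.94, 19.8 and 15.8 CPM in Control, and its groups did not overlap (log2 fold change 1.11, adjusted p = 0.123). MH06t0188700, lower over the day, had 186, 182, 207 and 197 CPM in WNT, against 257, 256, 287.8 and 232 CPM in Control, and its groups did not overlap either (log2 fold change -0.419, adjusted p = 0.244).

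The other 7 genes of this kind were less clear at 23 h. MH12t0040300, MH11t0361500 and MH01t0083500, higher over the day, had log2 fold changes of 0.115, 0.605 and 0.138 at 23 h, where their libraries overlapped. Of the genes lower over the day, MH04t0052600 had -0.69 with no overlap, at 5 ± 1.22 CPM in WNT and 8.09 ± 1.13 CPM in Control (SD, n = 4 each). MH08t0016700 and MH05t0062600 had -0.359 and -0.254 with overlap. MH03t0175300 was lower over the day by 2.09 on the log2 scale, but at 23 h its log2 fold change was 0.238, with 1.16, 6.01, 0.609 and 2.77 CPM in WNT, against 2.74, 1.82, 2.66 and 1.86 CPM in Control. None of the 7 was called at 23 h (adjusted p of 0.377 to 0.919 from edgeR).

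A score of each library gave the agreement over samples in place of genes. For each library of 23 h its log2 CPM, less the mean of the 8 libraries, was projected on the WNT effect of another time point. A positive difference between WNT and Control means the direction of that effect. The log2 CPM held a prior count of 2, which the fitted fold changes did not use. An effect of the same size can thus give a difference below 1, and genes of low level with large fold changes weigh on it. On the dawn effect the scores were -0.452, 0.163, 0.335 and -0.433 in WNT, against 0.238, -0.297, 0.213 and 0.233 in Control. WNT replicates 1 and 4 and Control replicate 2 were low and the other 5 libraries high, and the groups overlapped. The difference of WNT and Control was -0.194 (exact permutation test over 70 splits, two-sided, p = 0.343, adjusted over 9 axes 0.617). With a prior count of 0.5 it was -0.26 (exact permutation p = 0.314). Among genes with at least 10 counts in every library it was 0.269 (exact permutation p = 0.0857). Scoring the dawn libraries on the 23 h effect gave -0.0965 (exact permutation p = 0.6).

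On the effect of 10 h the scores were 0.499, -0.0222, 0.203 and 0.283 in WNT, against -0.291, -0.0251, -0.325 and -0.322 in Control. All WNT libraries lay above all Control libraries, WNT replicate 2 above Control replicate 2 by a small amount. The difference was 0.481, with an exact permutation p = 0.0286, the smallest that the 70 splits can give, and 0.257 after adjustment over the 9 axes. On the effects of dusk, 14 h and 17 h the differences were 0.38, 0.134 and 0.448 (exact permutation p = 0.0857, 0.0857 and 0.171), and on those of 3 h and 7 h they were -0.0989 and -0.00184 (p = 0.571 and 0.971, exact permutation). Across genes, the correlation of the 23 h effect with that of the other time points was also higher for 10 h, dusk and 17 h than for the others, with 0.353 for 10 h, 0.334 for dusk, 0.0914 for 14 h and 0.393 for 17 h, and -0.143 and -0.000546 for 3 h and 7 h. For 17 h, the WNT libraries that carried the on-off genes scored 0.676 and 0.546, and the other WNT libraries -0.108 and -0.22. Control replicate 2 scored 0.159 and the other Control libraries -0.416 to -0.304. For dusk, the WNT scores were 0.55 and 0.366, and -0.0946 and -0.0607, in the same order. Control replicate 2 scored 0.0268 and the other Control libraries -0.279 to -0.244. The part of the on-off pattern in the values of 17 h and dusk was not tested. On the change of Control leaves from 17 h to dawn the difference was -0.0375 (exact permutation p = 0.771).

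**Figure D4:**
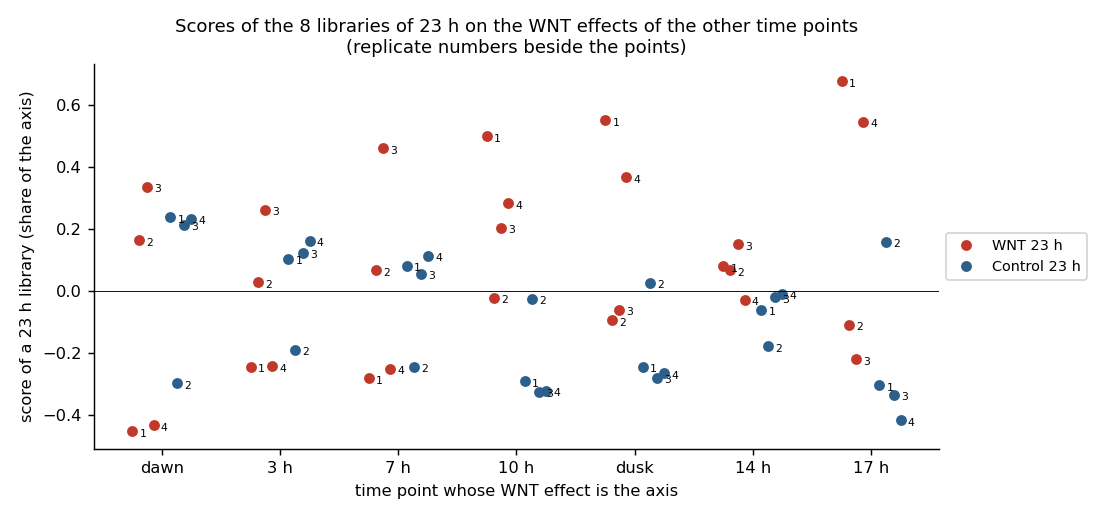
Score of each library of 23 h (y axis, as a share of the axis) on the WNT effect of each of the other 7 time points (x axis), WNT left of Control, with replicate numbers. On the 10 h effect the 4 WNT libraries lie above the 4 Control libraries, while on the dawn effect WNT replicates 1 and 4 (-0.452 and -0.433) lie below and WNT replicates 2 and 3 (0.163 and 0.335) above 0.

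The balance of unadjusted differences at 23 h varied with the time of day at which genes were highest in Control leaves. Genes were grouped by the time of their highest Control level among 3, 7 and 10 h, dusk, 14 h and 17 h, with no library of 23 h or dawn used, and 6857 of the genes tested fell in a group. Of the 1832 genes highest at 3 h, 241 were lower in WNT at 23 h at an unadjusted p under 0.05 (13.2%, against 4.23% of all genes) and 57 were higher (3.11%, against 10.5%). Of the 959 genes highest at 7 h, 179 were higher (18.7%) and 29 were lower (3.02%), and of the 1310 highest at 10 h, 191 were higher (14.6%) and 31 were lower (2.37%). The genes highest at dusk (1150) and at 14 h (685) had 121 (10.5%) and 83 (12.1%) higher, at or close to the share of all genes, and 20 (1.74%) and 8 (1.17%) lower. Those highest at 17 h (921) had 36 higher (3.91%) and 41 lower (4.45%). Of all these genes, 2 were called at 23 h, MH07t0013700 among those highest at dusk and MH05t0425000 among those highest at 14 h.

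The median log2 fold change at 23 h was -0.253 for the genes highest at 3 h, 0.26 for 7 h, 0.217 for 10 h, 0.131 for dusk, 0.132 for 14 h and -0.114 for 17 h. At dawn the medians were 0.0665, 0.364, 0.139, -0.13, 0.000266 and -0.186 in the same order. The genes highest at 7 h and 10 h were thus higher and those highest at 17 h lower in the median at both times, whereas those highest at 3 h and at dusk had opposite signs. Whether a group differs between the 2 times was not tested.

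The sign for 3 h held under all 34 alternatives, with medians of -0.463 to -0.134. Those for 7 h, 10 h and dusk did not turn, but their medians came close to 0. Without WNT replicate 3 of 23 h and WNT replicate 1 of dawn together the median was 0.0109 for 7 h and 0.00949 for 10 h. There 57 of the 1310 genes highest at 10 h were higher and 50 lower at an unadjusted p under 0.05. Of all 20807 genes tested in that fit 1367 were higher, which is a larger share. Without WNT replicate 2 of 23 h the median was 0.0136 for dusk. The median for 14 h turned to -0.0486 without WNT replicate 3 of 23 h and WNT replicate 1 of dawn together, and that for 17 h to 0.0223 with library size only. Without WNT replicate 3 of 23 h, 100 of the 1832 genes highest at 3 h were lower and 51 higher. Of all 20826 genes tested in that fit, 2235 had an unadjusted p under 0.05, of which 1684 were higher. Of the 959 genes highest at 7 h, 84 were higher there, close to the share of all genes, with a median of 0.0878. With library size only, 127 of the genes highest at 3 h were lower and 91 higher. Of all 20525 genes 3464 had an unadjusted p under 0.05 under that scaling, of which 3124 were higher. The genes highest at 3 h also had the highest level, with a median of 65.7 CPM, against 12.9 CPM over all genes and 5.42 to 21.7 CPM in the other groups, and the part of the level in this result was not tested.

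**Figure D5:**
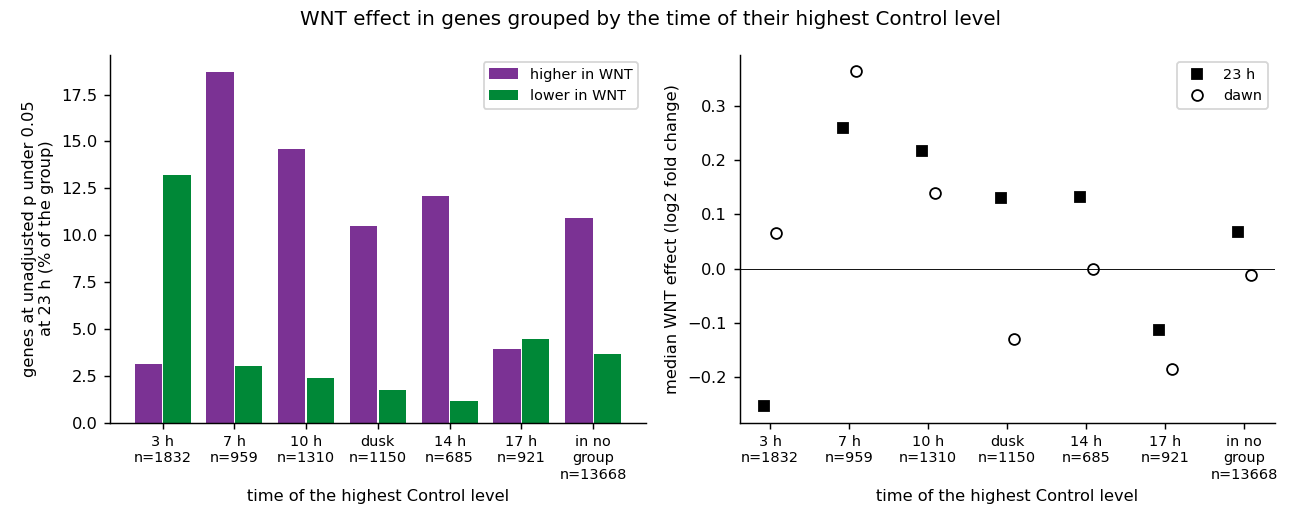
Left, share of the genes of each group (%, y axis from 0) that were higher or lower in WNT at 23 h at an unadjusted p under 0.05, by the time of the highest Control level (x axis), with the genes in no group at the far right. Right, median log2 fold change of WNT over Control in the same groups at 23 h (squares) and at dawn (circles), in which the genes highest at 3 h stand at -0.253 at 23 h and 0.0665 at dawn.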

How the data were processed

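The authors aligned the reads and deposited the counts per gene of each library as whole numbers without normalization. The submitters' processing notes name HISAT2 (version 2) and HTSeq (version 0.6.0). The genome build, the annotation and whether the counting used strand are not given in the sources used here, so overlapping, antisense and near-identical genes are uncertain. The 5 closing lines of each file, for reads not counted on a gene, were left out of the tests, so that 59.85% to 74.43% of the reads of a library of 23 h entered. The libraries of 23 h had 5175190 to 15314615 counts on genes.

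Libraries were grouped by treatment, time point and replicate number in their titles. The tests were run with edgeR 4.0.16 in R 4.3.3 (glmQLFit, robust, and glmQLFTest). Genes were kept by filterByExpr (count minimum 10, total minimum 15), scaled by TMM and fitted in a single model with a mean for each of the 16 groups, so that all 64 libraries share the estimate of the spread. The common biological coefficient of variation came to 0.331. Benjamini-Hochberg adjustment was applied in each comparison over all genes tested, and a gene was called under 0.05. CPM (counts relative to the library's total) use the TMM factors, and log2 CPM a prior count of 2. The test was tested on simulated data, drawn independently for each gene and library. These lack the pattern that libraries share here, and no result rests on them.

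Alternatives were RLE factors, library size only, 3 other filters, DESeq2 1.42.0, limma 3.58.1 (voom with sample quality weights), the likelihood ratio test, subsets of the libraries, a replicate block, each of the 16 libraries of 23 h and dawn left out, and, added after seeing the data, groups of libraries left out, surrogate variables (sva 3.50.0) and a covariate for unaligned reads. Plots were drawn with matplotlib 3.10.9.

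Named genes are those called at 23 h, the 5 in each direction with the smallest p for the mean of the effects at 23 h and dawn and no overlap at both times, the 5 in each direction with the smallest p over the other 7 time points, the 3 in each direction with the smallest p at dawn and the 5 with the smallest p for the difference, with at least 1 CPM on average for all but the first. MH05t0369800 and MH02t0476600 were chosen after their values were seen. The members, groups and lists were chosen with earlier results of these data known. Lists of heat shock, clock, starch, respiration, lipid desaturation and cell type marker genes were not run, because identifiers and names could not be joined.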

Additional observations from a re-analysis of the deposited data

Results flagged for a closer look

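In groups of 4 libraries, the highest or lowest value was set apart where its gap to the nearest other library exceeded the limit of Dixon's test as a share of the range of the group. Chance gives about 1 in 20 groups, or 8.3 of the 166 groups examined, and 21 were found. The measures of 1 library are not independent of each other.

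Among the libraries of 23 h, Control replicate 2 stood apart by 4.879% of reads aligned to several places (4.162% to 4.263% in the other Control libraries), 23542 genes with a count (21945 to 22211) and a summed level of 811.2 CPM of the on-off genes (6.231 to 16.39). It also stood apart from the other Control libraries in its scores on the WNT effects of 10 h (-0.0251), 3 h (-0.19), 7 h (-0.245), dawn (-0.297) and dusk (0.0268). At dawn Control replicate 4 stood apart by depth, with 20764372 counts on genes (6488788 to 7595649 in the others), 66.19% of reads on genes (71.57% to 72.18%) and 26439 genes with a count (21663 to 22295). WNT replicate 3 of dawn had 5.125% of reads aligned to several places (4.097% to 4.227% in the others).

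Single values of named genes that stood apart at 23 h were 29.96 CPM of MH09t0315400 and 223 CPM of MH09t0403500, both in WNT replicate 2, 0.956 CPM of MH04t0497600 in Control replicate 2 and 9.16 CPM of MH01t0728500 in Control replicate 3. At dawn they were 13.8 CPM of MH09t0429100 in WNT replicate 1, 12 CPM of MH01t0728500 in WNT replicate 2, 140.7 CPM of MH03t0651400 in Control replicate 2, and 18.2 CPM of MH06t0576800 and 13 CPM of MH04t0052600 in Control replicate 3.

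The WNT effect differed between 23 h and dawn, by the test of the difference in the edgeR model, for MH09t0403500 (1.34 on the log2 scale, 23 h minus dawn) and for MH06t0576700 (-1.35), each with an adjusted p of 0.0455.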

How the results depend on the processing

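Counts of called genes depended on the processing, and the sets of time-of-day genes and of genes called over the other 7 time points mostly kept their direction. At 23 h the 2 calls became 95 at an adjusted p under 0.1, 10 with library size only, 9 among genes with at least 10 counts in every library, 176 with DESeq2, 207 with limma-voom, 90 with the likelihood ratio test, 20 and 29 with 1 and 2 surrogate variables, 1 without the 3 libraries that carried the on-off genes, and 0 with no filter, with the libraries of 23 h and dawn only, with those of 23 h alone, with a covariate for unaligned reads and without WNT replicate 3 of 23 h and WNT replicate 1 of dawn together. Leaving out 1 library gave 0 to 63. At dawn the 83 calls became 245, 20, 178, 331, 420, 194, 146 and 251 under the first 8 of these alternatives in the same order, 47 without the 3 libraries, 0 without the 5 libraries, 12 with no filter, 4 with the libraries of 23 h and dawn only, 0 with those of dawn alone and 37 without the pair of WNT libraries. Leaving out 1 library gave 3 (without WNT replicate 4 of dawn) to 316 (without Control replicate 2 of dawn). The 2 genes that differed between 23 h and dawn became 1 with library size only, 35 with DESeq2, 39 with limma-voom, 22 with the likelihood ratio test and 0 with no filter, with the libraries of 23 h and dawn only, without the 3 or the 5 libraries, with 1 or 2 surrogate variables and with the covariate. Leaving out 1 library gave 0 to 6. Of the genes tested, 1.89% were called for the mean of both times, which became 5.16% at an adjusted p under 0.1, 0.267% with no filter, 4.49% with DESeq2, 3.19% with limma-voom, 3.48% with the likelihood ratio test, 0.127% with the libraries of 23 h and dawn only, 0.701% without the 3 libraries, 0.00941% without the 5 libraries and 0.211% without the pair of WNT libraries. Leaving out 1 library gave 0.25% (without WNT replicate 3 of 23 h) to 3.29% (without WNT replicate 2 of 23 h).

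The Pearson correlation of the effects at 23 h and dawn was -0.285 and became -0.112 with no filter, -0.162 with limma-voom and -0.383 without the pair of WNT libraries. It changed sign to 0.277 among genes with at least 10 counts in every library, 0.0136 when each time point had its own fit, 0.00607 without the 3 libraries, 0.22 without the 5 libraries, and 0.257 and 0.207 with 1 and 2 surrogate variables. Leaving out 1 library gave -0.527 to -0.136. The Spearman correlation of 0.0657 became 0.294, 0.133, 0.212 and 0.161 with the 10-count filter, the libraries of 23 h and dawn only, each time point alone and without the 5 libraries, 0.241 and 0.197 with surrogate variables, and -0.0699 without the pair of WNT libraries. Leaving out 1 library gave -0.0797 (without WNT replicate 1 of dawn) to 0.142, and -0.00127 without WNT replicate 3 of 23 h. The cause of these changes was not tested. The time-of-day groups held 2943 genes in place of 6857 with a range of at least 2 on the log2 scale.

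Same-numbered WNT and Control libraries did not deviate together (correlations of -0.494 to 0.204 at 23 h and -0.166 to -0.07 at dawn). These values cannot decide whether the numbers stand for shared plots. At 23 h the pattern common to WNT replicates 1 and 4 and Control replicate 2 enters them, and the labels do not give the plots. With a replicate block the number called was 0 at 23 h, 3 at dawn, 0 for the difference and 49 for the mean of both (0.239% of the genes tested). With the block and the libraries of 23 h and dawn only it was 0, 1, 0 and 0, and the Spearman correlation was 0.121. The share of unadjusted differences at 23 h that were higher in WNT was 62.5% with the block. Leaving out libraries by the on-off genes or in pairs, the surrogate variables and the covariate were chosen after seeing the data. The median of all genes at 23 h, 0.0522, moved by more than 0.1 with library size only, to 0.194, and without the pair of WNT libraries, to -0.0588.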

Other observations

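Of the 139 genes near 0 in some libraries and present in others at 23 h, 26 did not have the main pattern. There were 12 above 2 CPM in WNT replicates 1 and 4 alone, 9 in WNT replicates 1, 2 and 4 and Control replicate 2, 3 in WNT replicate 3 alone, 1 in WNT replicate 1 alone and 1 in WNT replicates 1, 3 and 4. Deviations from the group means across all genes tested were correlated between WNT replicate 1 and Control replicate 2 (0.584) and between WNT replicate 4 and Control replicate 2 (0.594), the highest values of a WNT and a Control library of 23 h for these replicates.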
